A study of Mus musculus with 12 samples.

Results

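The Cyp3a family of the mouse encodes microsomal cytochrome P450 enzymes that oxidize drugs, bile acids and steroid hormones, and it was taken here as 8 genes: Cyp3a11, Cyp3a13, Cyp3a16, Cyp3a25, Cyp3a41a, Cyp3a41b, Cyp3a44 and Cyp3a59. The genes were chosen by name, and their RefSeq identifiers were looked up in the expression table. Of the 8 genes, 7 had a row and Cyp3a41b (NM_001105159) had none. The 7 genes made up 9 of the 34933 transcripts in the table, and 8 of these 9 transcripts, from 6 genes, passed the filter (FPKM of 1 or more in 2 or more mice), as did 11511 transcripts in all. FPKM scales the fragments of a transcript by its length and by the size of the library, so that levels can be compared between genes.

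Livers came from male C57BL/6J mice in 3 groups. Control mice had no operation and stayed on normal chow for 28 weeks. Sham and VSG mice were put on a diet with 60 kcal% fat at 8 weeks of age, were operated on after 14 weeks and were kept on that diet for 14 weeks more, with 4 days of liquid diet around the operation. VSG (vertical sleeve gastrectomy) took away about 80% of the stomach, whereas the Sham operation left it whole. RNA-seq was done on 2 mice per group, and FAIRE-seq, which enriches accessible chromatin after formaldehyde fixation, gave 1 peak list per group from 2 mice. Sham and Control mice therefore differ in diet and in the operation at once, and these cannot be told apart. The same holds for VSG and Control mice.

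In the liver, Cyp3a genes are expressed in hepatocytes and are induced when the xenobiotic receptors PXR (Nr1i2) and CAR (Nr1i3) bind a foreign compound or a bile acid and pair with RXR on repeats of a hexamer half-site near the gene. The hepatocyte factor HNF4α sets the basal level. Cyp3a11 is the main hepatic enzyme of the family in male mice and the usual mouse counterpart of the human drug-metabolizing CYP3A enzyme, Cyp3a13 is also expressed in the intestine, and Cyp3a41a, Cyp3a41b and Cyp3a44 are known for higher expression in female liver.

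The depth of the RNA libraries was not analysed here, but the spacing of low FPKM values set the relative depth of the 6 libraries between 0.676 and 1.56 times that of Control mouse 1. The mice of a group differed by at least 2-fold on the log2(FPKM + 1) scale for 17.6% of transcripts in the Control livers, 32.8% in those of Sham and 23.9% in those of VSG mice. Of the 11511 transcripts tested, 3336 (29.0%) were listed at exactly 0 in at least 1 mouse, and so were 5 of the 8 Cyp3a transcripts. Of the 961 transcripts that reached an FPKM of 100 in a mouse, 119 (12.4%) were listed at 0 in another mouse, so a value of 0 in this table may be a failed estimate and is given below as listed at 0. Nothing in the labels ties the 2 mice of a group to separate litters or cages, and the p-values measure the spread between these mice.

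Genes of the family lay on chromosome 5 of mm9 (NCBIM37). Cyp3a13 (chr5:138334160-138362847) stood apart, and the other 7 genes lay between positions 146197178 and 146924861, over 727.684 kb, in the order Cyp3a16, Cyp3a41b, Cyp3a41a, Cyp3a44, Cyp3a11, Cyp3a25 and Cyp3a59. All but Cyp3a59 are on the minus strand. By coding sequence the genes fell into 3 sets. Cyp3a11, Cyp3a16, Cyp3a41a, Cyp3a41b and Cyp3a44 were 92.4% to 99.9% identical to each other, Cyp3a25 and Cyp3a59 were 97.5% identical to each other, and every other pair, Cyp3a13 included, lay between 74.7% and 76.8%.

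The promoters followed the same sets. The genes behind 4 of them gave the largest differences between mice or the strongest peaks in the Sham and VSG lists, and these 4 promoters are shown. Each runs from 250 bases before to 50 bases after the RefSeq start (GRCm38.p6) and matched mm9 exactly and once on chromosome 5, Cyp3a11 at chr5:146691381-146691680, Cyp3a16 at chr5:146230543-146230842 and Cyp3a25 at chr5:146821145-146821444 on the minus strand and Cyp3a59 at chr5:146890584-146890883 on the plus strand. Capitals mark the nuclear receptor half-sites AGGTCA and AGTTCA on either strand (TGACCT and TGAACT when read on the other), the HNF4α-type motif CAAAGTCCA and the AT-rich words CATATAA and AAATAAATA.
Cyp3a11: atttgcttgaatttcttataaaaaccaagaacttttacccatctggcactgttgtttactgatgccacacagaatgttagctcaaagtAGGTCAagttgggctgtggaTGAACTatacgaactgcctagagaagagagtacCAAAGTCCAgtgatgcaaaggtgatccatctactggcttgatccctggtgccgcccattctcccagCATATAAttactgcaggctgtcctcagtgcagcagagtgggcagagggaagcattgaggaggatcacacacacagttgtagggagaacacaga
Cyp3a16: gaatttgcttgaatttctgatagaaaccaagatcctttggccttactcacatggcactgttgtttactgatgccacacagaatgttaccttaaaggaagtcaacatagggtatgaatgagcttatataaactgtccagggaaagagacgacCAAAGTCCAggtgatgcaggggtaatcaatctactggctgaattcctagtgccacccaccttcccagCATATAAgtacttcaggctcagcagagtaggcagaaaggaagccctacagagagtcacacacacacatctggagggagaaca
Cyp3a25: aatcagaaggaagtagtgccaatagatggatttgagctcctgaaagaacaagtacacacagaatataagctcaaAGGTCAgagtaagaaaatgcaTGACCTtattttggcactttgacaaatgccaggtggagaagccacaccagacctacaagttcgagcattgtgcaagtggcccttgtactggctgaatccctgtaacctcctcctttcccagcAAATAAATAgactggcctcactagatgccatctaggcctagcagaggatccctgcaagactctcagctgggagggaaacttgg
Cyp3a59: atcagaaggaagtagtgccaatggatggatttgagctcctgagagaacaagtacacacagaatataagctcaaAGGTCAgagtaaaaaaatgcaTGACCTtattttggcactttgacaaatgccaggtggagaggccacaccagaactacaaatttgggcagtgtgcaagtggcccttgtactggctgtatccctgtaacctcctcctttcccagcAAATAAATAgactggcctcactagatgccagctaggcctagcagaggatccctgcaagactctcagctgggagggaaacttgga

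The Cyp3a11 promoter held AGGTCA 162 bases and, on the other strand, AGTTCA 142 bases before the start, then CAAAGTCCA 109 bases before it. The Cyp3a16 promoter, 74.8% identical to that of Cyp3a11, held CAAAGTCCA 99 bases before the start and neither half-site. CAAAGTCCA was found in 4 of the 8 Cyp3a promoters (Cyp3a11, Cyp3a16, Cyp3a41a and Cyp3a41b), against 0.475% of the 32851 promoters of that length in the RefSeq table. The Cyp3a25 and Cyp3a59 promoters were 95.7% identical, lacked CAAAGTCCA in this window, and each held AGGTCA on both strands, 176 and 155 bases before the start in Cyp3a25 and 177 and 156 bases before it in Cyp3a59. AGGTCA was found in 4 of the 8 Cyp3a promoters and in 16.3% of all promoters, and AGTTCA in 3 of the 8 and in 14.0%. CATATAA stood in the promoters of 5 of the 8 genes (2.31% of all promoters) and AAATAAATA in those of the remaining set, Cyp3a25 and Cyp3a59 (1.34%). TTCNNNGAA, the STAT5-type word of the growth hormone axis that sets sex differences in liver, was in 0 of the 8 and in 8.30% of all promoters. The Cyp3a13 promoter held none of the 6 words. The words CATATAA and AAATAAATA were chosen after the sequences had been read, the genes of a set share descent, and a match is a description of letters only.

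The likeness between genes bears on how reads could be assigned. RNA reads were 50 bases long, and 54.1% of the 50-base windows of the Cyp3a11 transcript were found with at most 2 mismatches in another transcript of the family, as were 51.3% of the Cyp3a16 windows, 83.9% of the Cyp3a25 windows and 84.4% of the Cyp3a59 windows. Without mismatches these shares were 14.7%, 10.5%, 26.8% and 28.3%. For Cyp3a41a the share was 98.6% without mismatches, and 93.7% of its windows were in Cyp3a41b. For Cyp3a13 it was 0.138% with at most 2 mismatches, so its value is the one least open to reads of its relatives. How the authors' estimate divided shared reads is not given in the sources used here, and the levels of all members other than Cyp3a13 are uncertain to that extent.

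**Figure D1:**
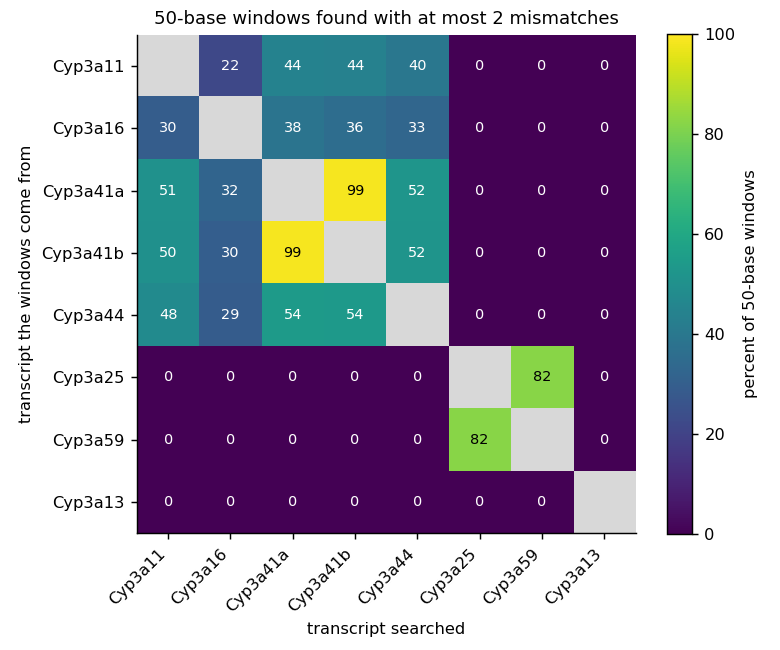
Share of the 50-base windows of each Cyp3a transcript (rows) that were found with at most 2 mismatches in each other transcript of the family (columns), in percent, for 8 genes of the mm9 annotation. Cyp3a13 stands alone, Cyp3a25 and Cyp3a59 share 82.2% of the Cyp3a25 windows, and the other 5 genes share windows among themselves.

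Cyp3a11 had the highest level of the family in Control mice and, in absolute units, the widest range of FPKM over the 6 mice. Its FPKM (NM_007818) was 1603 and 1293 in the 2 Control livers, 48.6 and 7.32 in those of Sham and 100.1 and 828 in those of VSG mice. Both Sham mice were below both VSG mice, and both VSG mice were below both Control mice, with no overlap between the groups. The share of all tested transcripts or genes with such a separation was not counted, here or below. The separation is therefore a description only. The transcript ranked 27 and 37 among all transcripts in the Control livers, 1271 and 4343 in those of Sham and 701 and 65 in those of VSG mice. The mean was 1448 ± 219 for the Control group, 28.0 ± 29.2 for the Sham group and 464 ± 515 for the VSG group (SD, n = 2), so that the Control mean was 51.7-fold and the VSG mean 16.6-fold the Sham mean. These folds were 198 and 63.3 without Sham mouse 1, and 29.8 and 9.54 without Sham mouse 2. In both Sham and VSG mice the SD was at least as large as the mean, and the VSG mice differed from each other by 8.27-fold.

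The difference of Sham from Control mice in Cyp3a11 was -6.15 on the log2(FPKM + 1) scale (SE 1.29, 95% interval -9.49 to -2.80), with an unadjusted p of 0.00536 and an adjusted p of 0.258 in limma, which did not pass the FDR of 10%. It was -7.44 without Sham mouse 1 and -4.86 without Sham mouse 2. The difference of VSG from Sham mice was 3.83 (SE 1.29, interval 0.49 to 7.17, adjusted p = 0.937 in limma), 2.31 without VSG mouse 2 and 5.35 without VSG mouse 1. The difference of VSG from Control mice was -2.32 (SE 1.29, interval -5.66 to 1.03, adjusted p = 0.723 in limma), -3.83 without VSG mouse 2 and -0.80 without VSG mouse 1. In Cyp3a11, VSG mouse 2 was the mouse nearest to the Control mice. Fewer hepatocytes that express a gene and less of its RNA per cell cannot be told apart in whole liver.

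**Figure D2:**
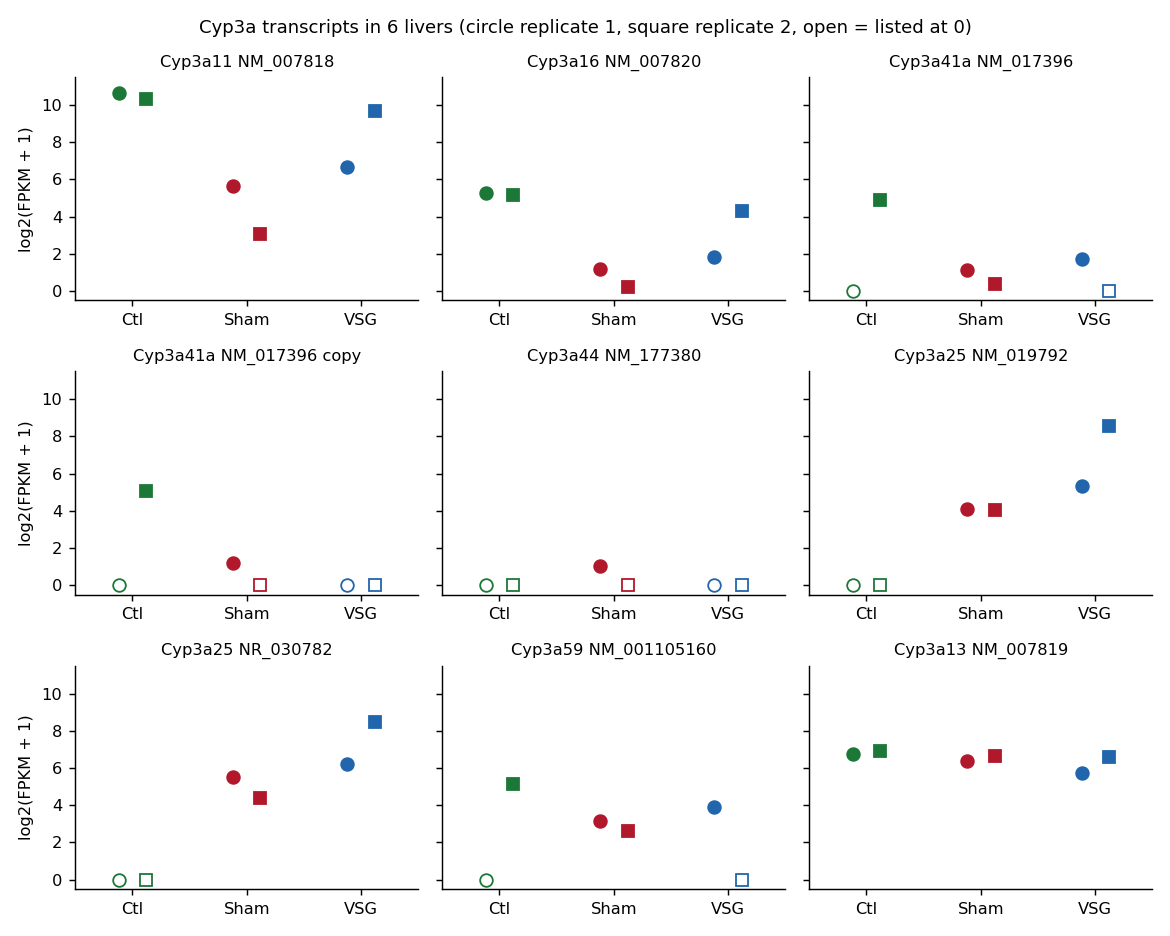
Level of each of the 9 Cyp3a transcripts, as log2(FPKM + 1), in 2 Control (Ctl), 2 Sham and 2 VSG mice, with circles for replicate 1, squares for replicate 2 and open symbols for values listed at 0. Cyp3a11 and Cyp3a16 are lowest in the Sham mice, both Cyp3a25 transcripts are listed at 0 in both Control mice, and Cyp3a13 stays between 52.6 and 119 FPKM.

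Across the 3 comparisons 0 of the 8 Cyp3a transcripts passed the FDR of 10% in limma, whose adjustment covers all 11511 transcripts. Over all of these, 0.347% were called between Sham and Control, 0.0782% between VSG and Sham and 0.217% between VSG and Control mice. These are 40, 9 and 25 transcripts, and they became 195, 60 and 40 without Sham mouse 2, 25, 5 and 41 without Sham mouse 1, 3, 0 and 2 without VSG mouse 1, 8, 0 and 0 without VSG mouse 2, and 0 in each without either Control mouse. At an unadjusted p under 0.05, 1177, 571 and 958 of the 11511 transcripts remained. Cyp3a11, Cyp3a16 and both Cyp3a25 transcripts had an unadjusted p under 0.05 between Sham and Control mice and again between VSG and Sham mice. With 2 mice against 2, an exact permutation test of a single gene cannot give a p below 0.333, and none was run. The median difference over the 8 transcripts was -1.01 for Sham minus Control, 1.24 for VSG minus Sham and -1.14 for VSG minus Control mice, beside medians of 0.02, 0.09 and 0.12 over all transcripts. Without Control mouse 2 the first and the last of these medians became 0.67 and 0.43.

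**Figure D3:**
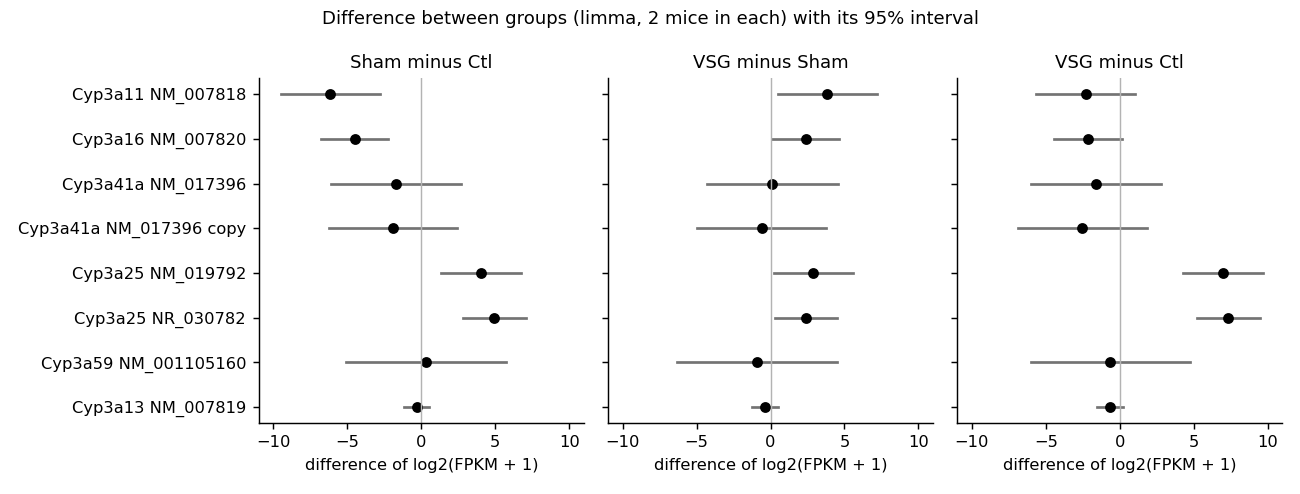
Difference of log2(FPKM + 1) between groups of 2 mice for the 8 tested Cyp3a transcripts, as limma estimates (points) with 95% intervals (lines), for Sham minus Control, VSG minus Sham and VSG minus Control. The interval of Cyp3a11 runs from -9.49 to -2.80 in the first panel and from 0.49 to 7.17 in the second, and no transcript passed the FDR of 10%.

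Cyp3a16, which is best known from fetal and female liver, followed Cyp3a11 at a far lower level. Its FPKM (NM_007820) was 37.8 and 35.5 in Control, 1.32 and 0.163 in Sham, and 2.59 and 19.0 in VSG mice, again without overlap between the groups. Sham minus Control was -4.52 on the log2(FPKM + 1) scale (SE 0.88, adjusted p = 0.227 in limma) and VSG minus Sham was 2.37 (SE 0.88, adjusted p = 0.937 in limma). The latter value became 1.13 when VSG mouse 2 was left out and 3.61 when VSG mouse 1 was. As a share of the Cyp3a11 FPKM of the same mouse, Cyp3a16 stood at 2.36% and 2.74% in Control, 2.71% and 2.22% in Sham, and 2.58% and 2.30% in VSG mice. The ratio thus stayed within 1.23-fold while Cyp3a11 itself ranged over 219-fold and Cyp3a16 over 232-fold. Of the 50-base windows of the Cyp3a16 transcript, 6.13% were found without mismatches and 29.5% with at most 2 mismatches in Cyp3a11, and the part of shared reads in this ratio was not tested.

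**Figure D4:**
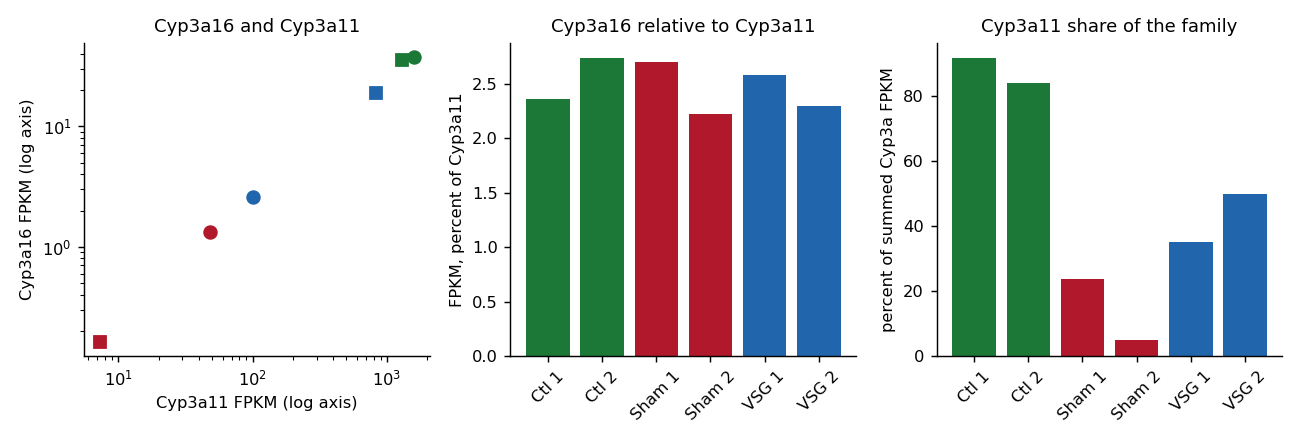
Left, FPKM of Cyp3a16 against Cyp3a11 in the 6 mice (both axes logarithmic, circles replicate 1, squares replicate 2). Middle, Cyp3a16 as a percentage of Cyp3a11, between 2.22% and 2.74% in every mouse. Right, Cyp3a11 as a percentage of the summed FPKM of the family, from 4.97% in Sham mouse 2 to 91.7% in Control mouse 1, with values listed at 0 counted as 0.

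Cyp3a25, an enzyme of adult liver and intestine, was listed at 0 in the Control mice and above 0 in the 4 others, and its order between Control and Sham mice rests on those zeros. Its coding transcript (NM_019792) was listed at 0 in both Control mice, while Sham mice had 15.9 and 15.4 and VSG mice 40.0 and 375. Its non-coding transcript (NR_030782) was listed at 0 in both Control mice, while Sham mice had 44.5 and 19.8 and VSG mice 73.8 and 349. For both transcripts the 2 VSG mice lay above the 2 Sham mice and these above the 2 Control values of 0. No fold against Control mice is given, because the table holds no counts behind these zeros. Summed over both transcripts, the VSG mean (419 ± 432, SD, n = 2) was 8.77-fold the Sham mean (47.8 ± 17.9, n = 2). VSG minus Sham was 2.90 (SE 1.04) for NM_019792 and 2.40 (SE 0.82) for NR_030782 on the log2(FPKM + 1) scale, both with an adjusted p of 0.937 in limma. Without VSG mouse 2 they were 1.30 and 1.28.

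Among all 34933 transcripts, tested or not, 7 were listed at 0 in both Control mice and at an FPKM of at least 10 in the 4 other mice. This pattern is that of Cyp3a25 itself, so its 2 transcripts were bound to be among these 7. The same pattern with 0 in both Sham mice was found for 2 transcripts and with 0 in both VSG mice for 1. Sham minus Control in limma had an adjusted p of 0.347 for NM_019792 and 0.170 for NR_030782, the latter 0.0709 with a pseudocount of 0.1. VSG minus Control had an adjusted p of 0.191 for NM_019792 and 0.112 for NR_030782. These 2 values moved past the FDR of 10% with a pseudocount of 0.1, to 0.0881 and 0.0596. Without VSG mouse 1, that of NM_019792 was 0.0625. When the transcripts were summed per gene, Cyp3a25 had an adjusted p of 0.0930 between VSG and Control mice, where 0.287% of all genes were called. Values of 0 that may be failed estimates enter all of these fits.

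Cyp3a59, the neighbour most like Cyp3a25, was listed at 0 in Control mouse 1 and VSG mouse 2 and at 34.7 in Control mouse 2, 7.88 and 5.11 in the Sham mice and 14.0 in VSG mouse 1. The groups overlapped, and Sham minus Control, 0.30 on the log2(FPKM + 1) scale, had an SE of 2.09 and was -2.28 without Control mouse 1 and 2.88 without Control mouse 2. In the 3 mice with values for both genes, Cyp3a59 stood at 13.0%, 14.5% and 12.3% of the summed Cyp3a25 FPKM. In Control mouse 2, Cyp3a59 had its highest value while Cyp3a25 was listed at 0, and in VSG mouse 2 Cyp3a25 had its highest value while Cyp3a59 was listed at 0. Of the Cyp3a59 windows, 82.3% were found in Cyp3a25 with at most 2 mismatches and 25.0% without, and the part of shared reads in these zeros was not tested.

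Of the genes known for higher expression in female liver, Cyp3a41a was present in 2 rows under the same RefSeq identifier, the second marked as a duplicate, and the table does not say where each row lies. The first row (NM_017396) was listed at 0 in Control mouse 1, at 29.4 in Control mouse 2, at 1.21 and 0.282 in the Sham mice, at 2.30 in VSG mouse 1 and at 0 in VSG mouse 2. The second row was above 0 only in Control mouse 2, at 32.1, and in Sham mouse 1, at 1.29. The groups overlapped in both rows, and their differences in limma had SEs between 1.68 and 1.71. Cyp3a44 (NM_177380) had a value of 1.08 in Sham mouse 1, was listed at 0 in the 5 others, and was not tested. In Control mouse 2, each row of Cyp3a41a and Cyp3a59 (34.7) reached FPKM values close to that of Cyp3a16 (35.5). The first Cyp3a41a row was also close to Cyp3a16 in Sham mouse 1 (1.21 against 1.32) and VSG mouse 1 (2.30 against 2.59). Cyp3a59 lay above Cyp3a16 in both Sham mice and in VSG mouse 1.

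Cyp3a13, which lies apart from the cluster and shares almost no 50-base window with it, was the steadiest member. Its FPKM (NM_007819) was 108 and 119 in Control, 83.4 and 99.4 in Sham, and 52.6 and 94.4 in VSG mice. Both Control mice were above the 4 other mice, while Sham and VSG mice overlapped. The means were 114 ± 7.95, 91.4 ± 11.3 and 73.5 ± 29.6 (SD, n = 2). Sham minus Control was -0.32 (SE 0.33, 95% interval -1.18 to 0.55) and VSG minus Sham was -0.36 (SE 0.33, interval -1.23 to 0.50, and 0.05 without VSG mouse 1), with adjusted p-values of 0.754 and 0.937 in limma.

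The makeup of the family differed between mice. The summed FPKM of all members was 1749 and 1544 in the Control livers, 205 and 147 in those of Sham and 285 and 1665 in those of VSG mice. Cyp3a11 made up 91.7% and 83.7% of the sum in Control, 23.7% and 4.97% in Sham, and 35.1% and 49.7% in VSG mice. These sums count values listed at 0 as 0, among them Cyp3a25 in both Control mice and Cyp3a41a and Cyp3a59 in Control mouse 1, so the Control shares of Cyp3a11 would be lower if those zeros were failed estimates. In both Control mice Cyp3a11 was highest and Cyp3a13 next, and Cyp3a16 followed in Control mouse 1, while in Control mouse 2 Cyp3a41a (61.4 over its 2 rows) stood above Cyp3a16. In each Sham mouse Cyp3a13 was highest, followed by Cyp3a25 (60.5 and 35.1), Cyp3a11 (48.6 and 7.32) and Cyp3a59 (7.88 and 5.11). Across the Sham mice the values of Cyp3a25 and Cyp3a11 overlapped, as did those of Cyp3a11 and Cyp3a59. In VSG mice Cyp3a11 and Cyp3a25 (114 and 724) overlapped, and both lay above Cyp3a13 in each mouse.

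For Cyp3a11, the 5 genes with the most similar profile among 9769, by root mean square difference of centred log2(FPKM + 1) over the 6 mice, were Ces2a (0.823), Cyp3a16 (0.880), Cyp2c29 (0.977), Upp2 (1.02) and Surf1 (1.09), against a median of 2.81 over all genes. Ces2a, a carboxylesterase, had FPKM values of 190 and 177 in Control, 22.1 and 3.33 in Sham, and 20.7 and 140 in VSG mice. Cyp2c29, a P450 of fatty acid and drug oxidation, had values of 339 and 483, 41.5 and 11.2, and 123 and 424. Surf1, an assembly factor of cytochrome oxidase, was listed at 0 in the Sham mice and in VSG mouse 1. The 5 genes nearest to Cyp3a25 were Mir3098, Snord22, Spryd4, Cyp2b9 and Snord72, at 1.55 to 1.89 against a median of 3.47. All of these but Cyp2b9 were listed at 0 in both Control mice. Likeness over 6 mice of 3 groups is a description and was not tested.

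The regulators and partners of the family were read next. The adjustment for genes covered all 9769 genes tested, of which 0.307% were called between Sham and Control, 0.0512% between VSG and Sham and 0.287% between VSG and Control mice. Of 14 receptors and hepatocyte factors, 13 were tested and 0 passed in any comparison, with median differences of 0.14, 0.19 and 0.17 beside 0.03, 0.08 and 0.13 over all genes. Nr1i2, which encodes PXR, had FPKM values of 38.4 and 36.1 in Control, 23.2 and 30.2 in Sham, and 12.5 and 17.0 in VSG mice. Its 3 groups did not overlap, a pattern that was not counted over all genes. VSG mice had the lowest values, with VSG minus Control at -1.29 (SE 0.25, adjusted p = 0.307 in limma). Nr1i3, which encodes CAR, was listed at 0 in every mouse. Hnf4a had values of 31.0 and 55.6 in the Control livers, of 16.0 and 34.4 in those of VSG mice and of 73.3 in Sham mouse 2. It was listed at 0 in Sham mouse 1, and both of its comparisons with Sham mice rest on that value. Stat5b, the growth hormone signal transducer, stayed between 6.25 and 8.98.

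Of the 11 redox partners and heme genes, all tested, 0 passed, and 10 were above 0 in VSG minus Sham mice with a median of 0.32, beside 59.8% and 0.08 over all genes. Without Sham mouse 2 there were 6 of 11 above 0, with a median of 0.021, beside 51.4% and 0.014 over all genes. Por, the reductase that passes electrons to every microsomal P450, had values of 122 and 178 in Control, 80.9 and 150 in Sham, and 101 and 288 in VSG mice, which overlapped.

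Other targets of CAR and PXR were taken from a list of 35 genes, of which 28 were tested. The median difference was -1.52 in Sham minus Control, 1.23 in VSG minus Sham and -0.23 in VSG minus Control mice, beside 0.03, 0.08 and 0.13 over all genes. In VSG minus Sham 27 of the 28 were above 0, as were 59.8% of all genes. Of the 28 genes, 25 were lower in Sham mouse 2 than in Sham mouse 1, with a median difference of -1.59. Without Sham mouse 2 the VSG minus Sham median was 0.65 with 24 of 28 above 0, beside 0.014 and 51.4% over all genes. Leaving out VSG mouse 2 gave 0.70. Leaving out VSG mouse 1 gave 1.90 and turned the VSG minus Control median to 0.38. In limma 1 gene passed, Cyp2b10, the P450 that is the standard target of CAR. Its FPKM was 8.46 and 8.81 in Control, 0.0389 and 0.00900 in Sham, and 0.135 and 0 in VSG mice. Cyp2b10 was lower in Sham than Control mice by a log2 difference of -3.23 (SE 0.23, adjusted p = 0.0237 in limma) and in VSG than Control mice by -3.18 (SE 0.23, adjusted p = 0.0281 in limma). VSG minus Sham was 0.06 (95% interval -0.53 to 0.65) at levels of at most 0.135 FPKM. The first call was lost without Control mouse 1 or 2, at adjusted p-values of 0.189 and 0.372, and the second when any 1 of the 4 Control and VSG mice was left out, at 0.129 to 0.308 in limma. With a pseudocount of 0.1 they stood at 0.152 and 0.190. Cyp2b13, a female-biased relative, did not reach an FPKM of 1 in any mouse.

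Among genes with a sex difference in liver, 15 of 27 female-biased genes and 16 of 26 male-biased genes were tested, and 0 passed in any comparison. The medians in Sham minus Control were -0.27 and -1.004, and those in VSG minus Sham were 0.41 and 0.48. Without Sham mouse 2 the first pair became 0.034 and -0.25 and the second 0.53 and -0.057, and without VSG mouse 1 the second became -0.079 and -0.071. Of 8 tested genes of the growth hormone axis 0 passed. Their median was 0.04 in Sham minus Control, -0.23 in VSG minus Sham and -0.07 in VSG minus Control mice. Over all genes these medians were 0.03, 0.08 and 0.13. The VSG minus Sham median of the axis became 0.39 without VSG mouse 1 and 0.28 without Sham mouse 2.

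Markers of cell types were read beside these results. Of 8 hepatocyte markers, 5 had a row, and their summed FPKM was 13784 to 17181 in the Control livers, 8796 to 14636 in those of Sham and 11004 to 15879 in those of VSG mice. Without Apoa1, the highest, the 4 others summed to 5708 to 6063 (Control), 1636 to 4391 (Sham) and 4671 to 5098 (VSG). Among them Tat, a hepatocyte enzyme of tyrosine breakdown that glucocorticoids induce, stood at 1376 and 1477 in the Control livers, 210 and 188 in those of Sham and 233 and 283 in those of VSG mice, lower in Sham than Control mice by -2.84 (SE 0.24, adjusted p = 0.0447 in limma) and in VSG than Control mice by -2.47 (SE 0.24, adjusted p = 0.0676 in limma). Both calls of Tat were lost when any 1 of the 4 Control and VSG mice was left out, at adjusted p-values of 0.142 to 0.575 in limma. The 7 pericentral markers, of the zone where Cyp3a11 is known to be highest, summed to 5158 to 5365 in the Control livers, 2762 to 5962 in those of Sham and 5952 to 8061 in those of VSG mice, and the 7 periportal markers to 3400 to 3467, 1370 to 1459 and 1327 to 2374. The 10 Kupffer cell markers summed to 34.2 to 51.7, 122 to 133 and 101 to 329, and the 8 endothelial markers to 21.6 to 47.4, 7.90 to 8.71 and 30.3 to 33.6. The 7 stellate cell markers summed to 57.5 to 58.7 in the Control livers, 21.4 to 32.5 in those of Sham and 60.4 to 84.4 in those of VSG mice, the 5 cholangiocyte markers to 30.7 to 32.7, 62.9 to 186 and 30.9 to 145, of which all but Spp1 summed to 2.21 to 3.36, 2.53 to 4.57 and 1.63 to 2.013, and the 5 neutrophil markers to 4.91 to 12.4, 40.9 to 43.8 and 16.2 to 21.4. Of the 5 intestinal markers, Vil1 and Sis were listed at 0 in all 6 mice and Lct and Muc2 were at most 0.0176, while Fabp2, a fatty acid binding protein, stood at 40.1 to 56.7 in the Control livers, 65.9 to 68.0 in those of Sham and 87.8 to 148 in those of VSG mice. The part of these cell types in the Cyp3a values was not tested.

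Open chromatin over the cluster was sparse. Each FAIRE list combines the 2 mice of a group, its signal is the authors' F-seq density, and no value per mouse was at hand, so the peaks are described and not tested. Over the cluster with 10 kb on each side (chr5:146187178-146934861, 747.684 kb, 7 genes) there were 2 peaks in the Control, 6 in the Sham and 9 in the VSG list. These are 2.67, 8.02 and 12.0 peaks per Mb, against 18.3, 22.4 and 19.3 per Mb on chromosome 5 as a whole. FAIRE reads were kept only where they mapped to 1 place. Of the 100-base windows of the cluster, 6.70% hold unknown bases, and 15.4% of the others occur again on chromosome 5. Within genes that share was 64.9% for Cyp3a41b, 64.0% for Cyp3a41a and 9.21% for Cyp3a44, against 1.02% for Cyp3a11, 1.98% for Cyp3a25 and 2.24% for Cyp3a59.

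Merged by at least 1 bp of overlap, the 3 lists gave 12 peaks over the cluster, of which 2 were present in all 3 groups, 6 in VSG mice only, 3 in Sham mice only, 1 in Sham and VSG mice and 0 in Control mice only. Over the whole genome, 55.2% of the 59249 merged peaks were present in all 3 groups, 3.82% in VSG mice only and 17.1% in Sham mice only. The 6 VSG-only peaks of the cluster lay at the 0.36 to 30.4 percentile of signal in the VSG list. The 3 Sham-only peaks lay at the 0.045 to 15.2 percentile of the Sham list. The genome shares were not matched for signal. The 2 peaks common to all groups covered the starts of Cyp3a25 (chr5:146821139-146821444) and Cyp3a59 (chr5:146890596-146890891), the pair of promoters with 2 AGGTCA half-sites. The signal at Cyp3a25 was 0.205 in the Control livers, 0.737 in those of Sham and 0.383 in those of VSG mice, which put the peak at the 35.8, 79.0 and 63.3 percentile of its list. At Cyp3a59 it was 0.178, 0.676 and 0.412, at the 24.5, 75.4 and 66.5 percentile. The lists hold 42204, 52881 and 44539 peaks, so a percentile is a place within its own list. A signal of 0.193 stood at the 0.045 percentile of the Sham list and at the 19.5 percentile of the VSG list. Neither signals nor percentiles were compared between groups. The Cyp3a25 start was in the Control peak list, while both Cyp3a25 transcripts were listed at 0 in both Control mice. The RNA came from the livers used for FAIRE, but a list that combines 2 mice gives no value to set beside that of a single mouse.

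At the start of Cyp3a11 a peak was present in the VSG list only (chr5:146691419-146691625, 207 bp), with a signal of 0.197, at the 21.5 percentile of the VSG list. It covered bases 56 to 262 of the promoter printed above, and with them both half-sites, CAAAGTCCA and CATATAA. The Control list had no peak there, although Cyp3a11 reached 1603 and 1293 FPKM in Control mice. The 9 peaks away from gene starts were 8 intergenic peaks and 1 in an intron of Cyp3a44 (chr5:146611798-146612134, Sham only, signal 0.233), with VSG signals up to 0.221 and Sham signals up to 0.233. No peak overlapped the promoters of Cyp3a16, Cyp3a41a, Cyp3a41b or Cyp3a44 in any list. When only the upper 50% of each list by signal was kept, 2 peaks remained over the cluster and 0 of them in all 3 groups, and when the lists were trimmed to equal length 2 were common and 6 were not.

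**Figure D5:**
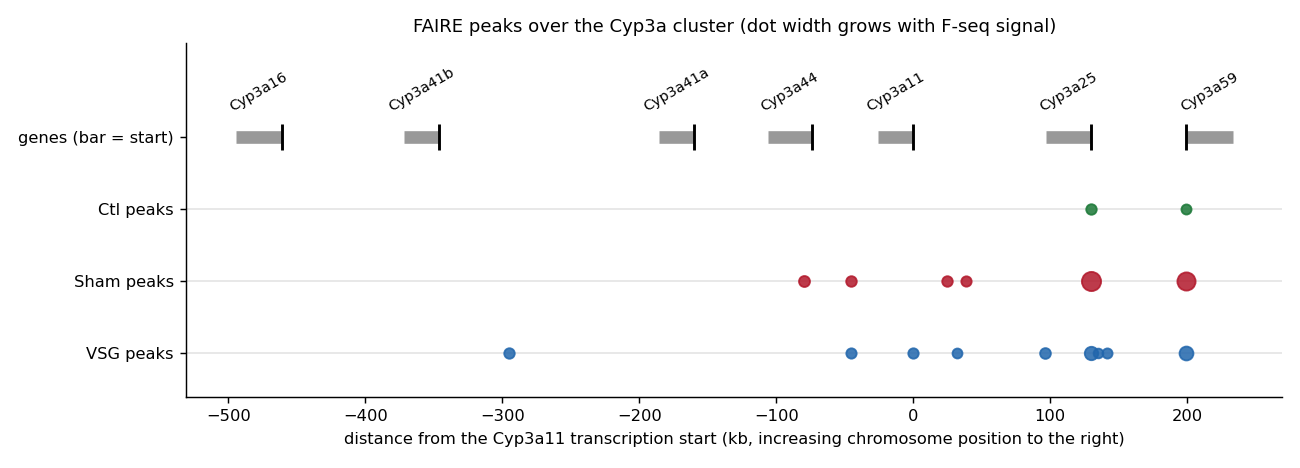
FAIRE peaks over the Cyp3a cluster in the Control (Ctl), Sham and VSG lists by distance from the Cyp3a11 start in kb, with genes as grey bars and their starts as black lines, and dots that grow with the F-seq signal. The lists hold 2, 6 and 9 peaks, the largest at the starts of Cyp3a25 and Cyp3a59.

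Cyp3a13 had a peak over its start in all 3 lists (chr5:138362623-138363132), with signals of 0.284, 0.532 and 0.367, at the 57.3, 64.6 and 61.2 percentile. A second peak beside it, 608 bp from the start, and 1 intergenic peak downstream of the gene were present in Sham and VSG mice, and 1 more downstream peak in Sham mice only. Within 1 kb of the start, 3 of the 8 genes had a peak in the Control livers, 3 in those of Sham and 4 in those of VSG mice, against 54.3%, 53.7% and 55.9% of the 1301 coding genes on chromosome 5.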

How the data were processed

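RNA-seq and FAIRE-seq were each measured in 2 mice of 3 groups, grouped by sample title. FPKM values per RefSeq transcript and mouse were computed by the authors with TopHat2 and Cufflinks on mm9. The labels name poly(A) selection and the published methods rRNA depletion. The authors took the FAIRE signal from F-seq, on reads mapped once by Bowtie, with IDR across 2 mice. Deposited DESeq2 tables of fold changes and p-values, and lists of variable sites, were not used.

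Transcripts that reached 1 FPKM in 2 or more mice were fitted as log2(FPKM + 1) with limma 3.58.1 (R 4.3.3, variance trend, 3 groups in 1 fit), with Benjamini-Hochberg adjustment and an FDR of 10%, and lists on FPKM summed per gene. The fit was tested on simulated data. Members and lists were chosen with earlier results of these data known. Named were all members, 7 genes fixed by name, list genes that passed and the 5 most similar genes. Windows, motifs and peaks were read from NCBIM37 and RefSeq (GRCm38.p6) in Python 3.11.15 with Biopython. Same-numbered mice deviated together with r of 0.115, 0.0862 and 0.115. The alternatives covered pseudocount, filter, scaling, variance, block, single mice and peak choice, and values of 0 as missing was chosen after seeing the data.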

Additional observations from a re-analysis of the deposited data

How the results depend on the processing

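With 2 mice per group and no deposited counts, depth sets no interval on these values, and a difference that missed the FDR was not shown to be absent. The median difference of the Cyp3a transcripts ranged from -3.22 to 0.67 (Sham minus Control), 0.80 to 1.78 (VSG minus Sham) and -2.13 to 0.43 (VSG minus Control) when 1 mouse was left out. With no filter on FPKM, over 9 transcripts with Cyp3a44 among them, these medians were -0.32, 0.11 and -0.68. With a pseudocount of 10 they were -0.62, 0.44 and -0.73. With values of 0 as missing the Sham minus Control median was -4.01, over 6 transcripts only. Both Cyp3a25 transcripts, at 4.06 and 4.94 in the main fit, dropped out because no Control value was left. The count of transcripts called in VSG minus Control was 0 to 1 with 1 mouse left out, 2 with a pseudocount of 0.1, 1 with FPKM summed per gene and 1 without a variance trend, and in Sham minus Control it was 1 with a pseudocount of 0.1. Peaks present in all 3 groups fell to 0, and those in some groups to 2, with the upper 50% of each list, and the latter to 6 with equal list sizes. The cause of these shifts was not tested beyond the construction of each alternative.

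The labels tie same-numbered mice by that number only, and their deviations correlated with r of 0.0862 to 0.115. Whether they share anything else is not known. With the replicate block 0 Cyp3a transcripts were called in each comparison, while 12, 0 and 9 of all transcripts were called in place of 40, 9 and 25. With the block, Cyp2b10 and Tat did not pass either.

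Directions turned for uncalled genes. Cyp3a59 was -0.36 (pseudocount 10) and -2.28 (0 as missing) in Sham minus Control and 1.02 (0 as missing) in VSG minus Sham. Cyp3a41a was -0.53 (pseudocount 0.1), and Hnf4a -1.60 (0 as missing), in VSG minus Sham, and Hnf4a 0.80 (0 as missing) in Sham minus Control. Cyp2b10 was -0.056 (quantile) in VSG minus Sham, and Stat5b -0.093 (median of ratios) and -0.064 (quantile) in VSG minus Control. With 1 mouse left out, Sham minus Control ranged from -4.17 to 0.75 and from -4.45 to 0.60 for the 2 rows of Cyp3a41a, from -2.28 to 2.88 for Cyp3a59, -5.41 to 0.80 for Hnf4a, -0.86 to 0.027 for Por and -0.013 to 0.26 for Stat5b. VSG minus Sham ranged from -0.034 to 0.15 for Cyp2b10, -0.78 to 0.052 for Cyp3a13, -0.75 to 0.97 for the first row of Cyp3a41a, -2.88 to 1.02 for Cyp3a59, -1.60 to 4.62 for Hnf4a, -0.12 to 1.38 for Por and -0.30 to 0.16 for Stat5b. VSG minus Control ranged from -4.06 to 0.86 for the first row of Cyp3a41a, -3.21 to 1.95 for Cyp3a59, -0.53 to 0.96 for Por and -0.17 to 0.29 for Stat5b.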

Other observations

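Cyp3a57 (NM_001100180), which lies beside the cluster at chr5:146106148-146151381 (mm9) and was not among the 8 genes, had FPKM values of 5.17 and 5.20 in Control, 0.772 and 1.55 in Sham, and 1.77 and 12.3 in VSG mice. Sham mice were below both other groups, and Control and VSG mice overlapped. Its coding sequence was 93.9% identical to that of Cyp3a25 and 94.2% to that of Cyp3a59. Unlike Cyp3a25, it was above 0 in both Control mice. Its promoter held AGGTCA on both strands, 174 and 153 bases before the start, and AAATAAATA, and a FAIRE peak covered its start in the Sham list only (chr5:146105910-146106205, signal 0.237).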
